A study of Mus musculus with 32 samples.

Results

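The 7 genes described here write, keep or remove methyl groups on cytosine in DNA: the maintenance pair Dnmt1 and Uhrf1, the de novo methyltransferases Dnmt3a and Dnmt3b, and the dioxygenases Tet1, Tet2 and Tet3. They were taken by symbol, with every probe whose RefSeq accession belongs to them, and are 7 of the 20660 gene symbols named on the array. Their RNA was measured on 1-colour Agilent mouse arrays in 28 samples of 4 groups. The study set 8 superior mesenteric ganglia (SMG, a sympathetic ganglion of the abdomen) of wild-type mice beside 8 SMG of mice hemizygous for TH-MYCN. It also measured 8 primary sphere cultures and 4 sphere cultures from such TH-MYCN mice. The primary spheres were cultured for 8 days, and the 4 passaged cultures had been passaged 5 times and were hybridised to 2 arrays each. All mice were 3 weeks old and of the 129+Ter/SvJcl strain background. TH-MYCN is a MYCN transgene under the tyrosine hydroxylase promoter, which is active in catecholamine-making cells. The labels do not say which cells of the mice founded the spheres, and wild-type spheres are not analysed here, so culture was compared within the transgenic genotype only. The labels call the samples biological replicates and do not say whether each came from its own mouse, so the spread between samples is the error used throughout.

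DNA methylation sits mainly at CpG pairs. UHRF1 recognises the hemimethylated CpG left behind the replication fork and brings in DNMT1, which copies the mark to the new strand, so both proteins are needed most when DNA is replicated. DNMT3A and DNMT3B set methylation on unmethylated DNA, DNMT3A being prominent in postmitotic neurons and DNMT3B in early embryonic cells. TET enzymes oxidise methylcytosine with 2-oxoglutarate as co-substrate, and the oxidised base is diluted by replication or cut out by the glycosylase TDG and repaired.

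Short stretches of DNA upstream of 3 of the genes are shown because they hold the searched motifs. The 250 bases before each annotated start of the 7 genes (12 starts, RefSeq, GRCm38.p6) were searched on both strands for the E2F-type motifs TTTCCCGC, TTTGGCGC and TTTCGCGC and for the E-box CACGTG. Each line below is 30 bases on the gene's own strand, 5′ to 3′, with the match in capitals.
Uhrf1, chr17:56304117-56304146, plus strand: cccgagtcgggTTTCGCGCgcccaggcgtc
Dnmt1, chr9:20952824-20952853, minus strand: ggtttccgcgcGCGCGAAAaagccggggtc
Dnmt3a, chr12:3891652-3891681, plus strand: tccagtggggccCACGTGacctggagttct
TTTCGCGC lay 185 bases before the second Uhrf1 start, and its reverse complement 219 bases before the third Dnmt1 start. The motif occurs in 0.256% of the 32851 promoter windows of the same length in the table, and any of the 3 E2F-type motifs in 1.53%. By gene, 2 of the 7 held an E2F-type motif, against 480 of 27025 genes in the whole table, 6 of 16 DNA replication genes and 1 of 17 mitosis genes with a promoter entry. CACGTG, found 80 bases before the third Dnmt3a start, occurs in 6.02% of the windows. Each of these 3 windows held 1 match, and the windows of Dnmt3b, Tet1, Tet2 and Tet3 held none. These matches describe letters, not binding. The 250-base windows with the E2F-type match are rich in CpG, with 30 in Uhrf1 and 26 in Dnmt1, against a median of 6 over all windows, and the Tet2 window holds 51.

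Levels are given on the log2 scale as the processed signal relative to the 75th percentile of its array, so 0 is the brightness of the 75th-percentile probe, and the level of one probe says nothing against that of another. Each gene is given by its probe with the highest mean, and all 7 of these probes were well above background in all 28 samples. The 75th percentile lay between 323 and 1358 intensity units over the 32 arrays, and 49.0% to 65.7% of probes were well above background. Both SMG groups were spread over the same 2 slides and the spheres over another 2 slides. Genotype went with the column of the slide in SMG, as did passage in spheres, so column and group cannot be told apart. Slide and culture likewise cannot be told apart in any comparison of spheres with SMG. The labelled tissue was checked against sympathetic markers: 11 of 12, Th and Dbh among them, were well above background in all 28 samples, and Chrna3 in 26. A call is a limma p adjusted by Benjamini-Hochberg over all genes tested, under 0.05.

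**Figure D1:**
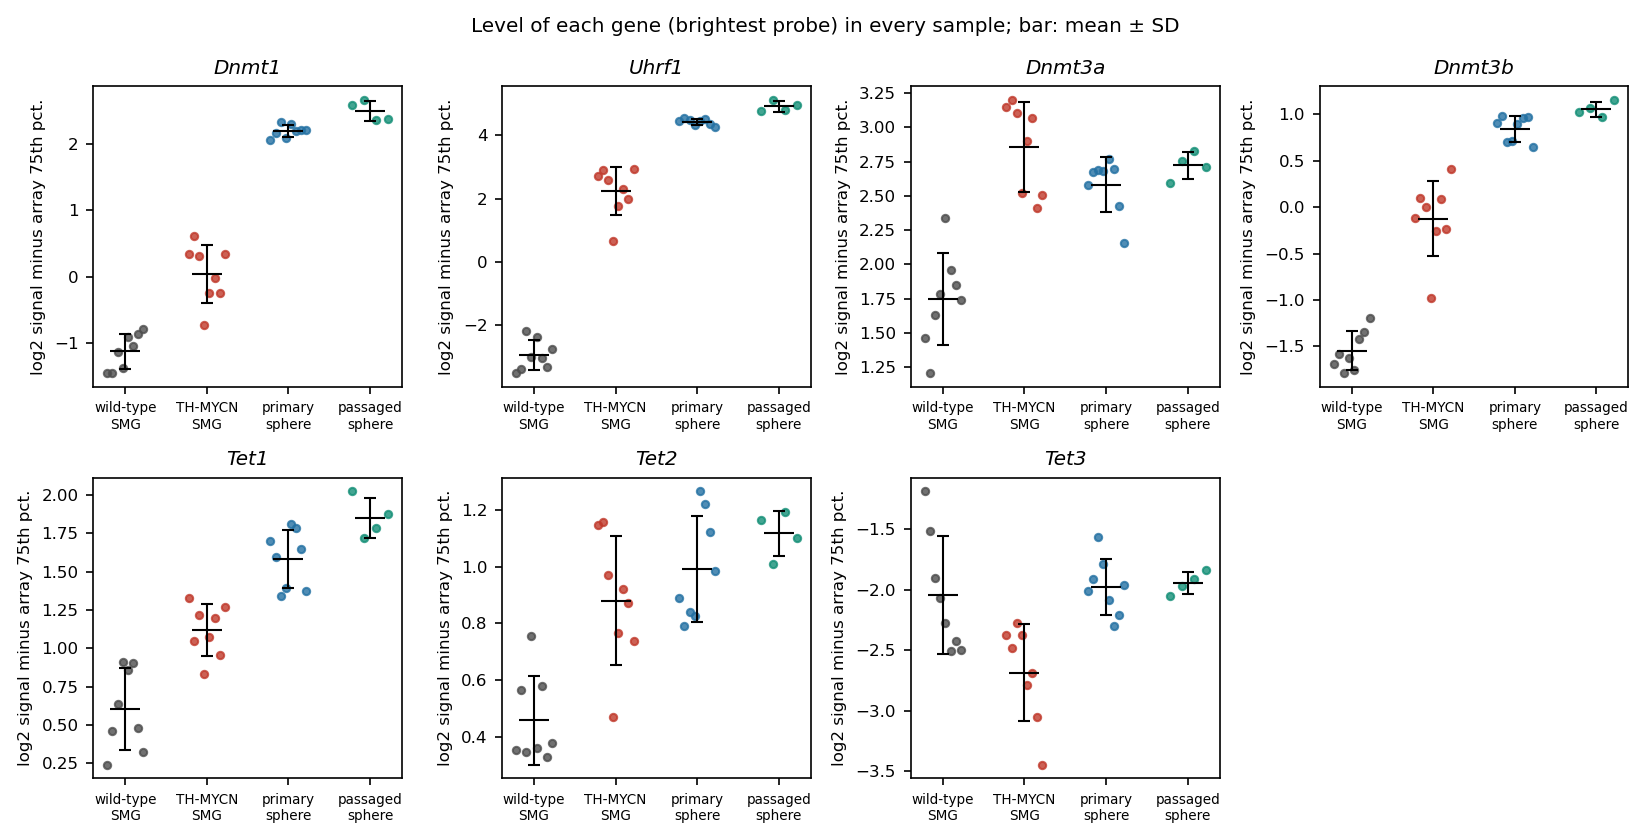
Level of each gene (log2 signal relative to the array's 75th percentile, vertical axis, own scale per gene) in each sample of the 4 groups, 1 point per sample with the group mean ± SD. Dnmt1, Uhrf1 and Dnmt3b step up from wild-type SMG to TH-MYCN SMG to spheres with no overlap. Dnmt3a has a higher mean in TH-MYCN SMG and both sphere groups than in wild-type SMG, though primary spheres and wild-type SMG overlap. Tet1 rises by 0.51 and 0.47 in the first 2 steps.

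In TH-MYCN SMG against wild-type SMG, 6 of the 7 genes were higher, and Tet3 was lower by its brightest probe. The groups did not overlap for Dnmt1, Uhrf1, Dnmt3a and Dnmt3b, as for 21.5% of all tested genes (9.16% with TH-MYCN SMG the higher). The background in this comparison was 65.7% of 15825 genes called (21.9% higher and 43.8% lower), so being called is common, while being called higher is less so. The median of the 7 differences was 1.11 on the log2 scale, against -0.22 over all tested genes. In primary spheres against TH-MYCN SMG, 5 of 7 were higher and 2 were not called, with 83.2% of 15636 genes called (50.3% higher) and medians of 0.71 for the 7 and 0.27 for all genes. In passaged against primary spheres, 2 of 7 were higher and 5 were not called, with 11.7% of 14150 genes called (5.17% higher) and medians of 0.21 and 0.01. The share of calls that were higher was 33.4% in the first comparison and 60.4% in the second, and became 55.5% and 48.3% when the median difference was set to 0. That scaling, chosen after the data were seen, changes the call or the sign of 4 members in the first 2 comparisons, each given with its gene below.

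**Figure D2:**
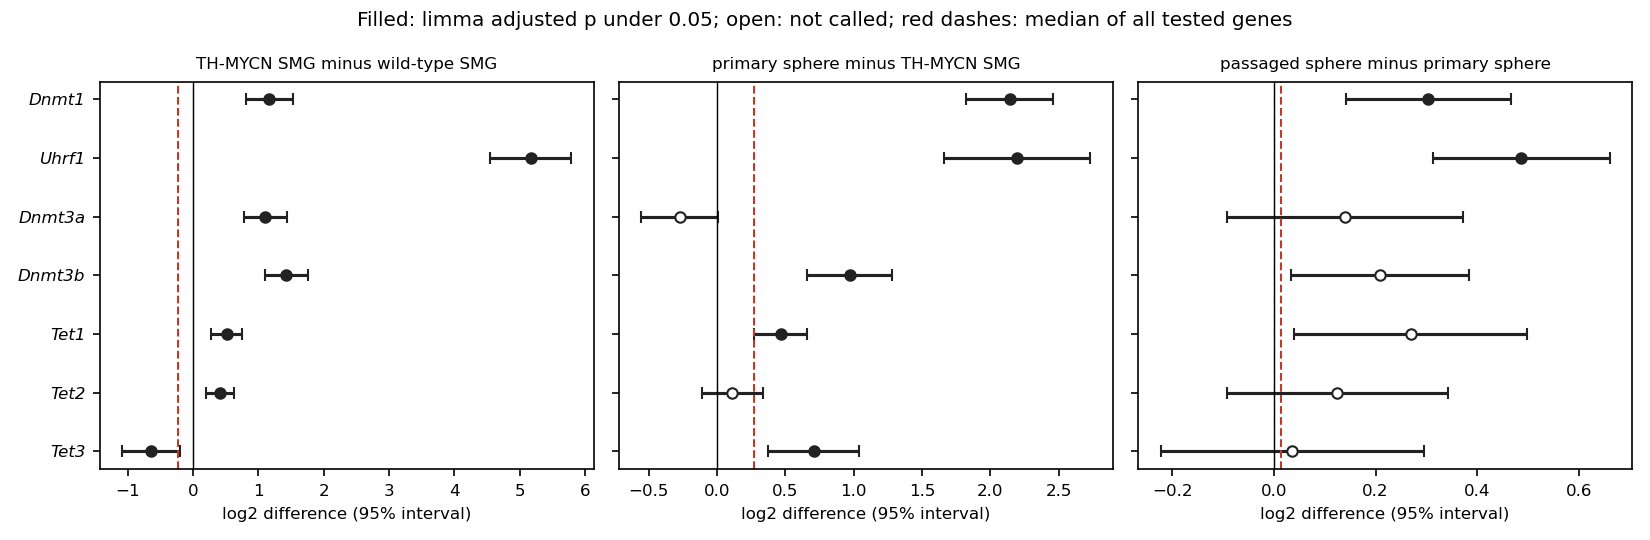
log2 difference of each gene in the 3 neighbouring comparisons (horizontal axis, own scale per panel) with its unadjusted 95% interval. Filled points passed an adjusted p of 0.05 and the dashed line is the median of all tested genes. Uhrf1 has by far the widest step between the ganglia at 5.17, and in passaged against primary spheres only Dnmt1 and Uhrf1 are filled.

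Uhrf1 showed the largest differences of the 7. Its level lay between -3.51 and -2.18 in wild-type SMG (median -3.01) and between 0.67 and 2.95 in TH-MYCN SMG (median 2.43). The primary spheres lay between 4.25 and 4.54 (median 4.46), and the passaged cultures 1 to 4 stood at 4.76, 5.12, 4.80 and 4.95. The 4 groups did not overlap, and TH-MYCN SMG replicate 4, at 0.67, was the lowest of its group. The step from wild-type to TH-MYCN SMG was 5.17 (SE 0.29, n = 8 and 8, limma adjusted p = 4.23e-10), a 35.9-fold higher signal. Within the slides it was 5.23 and 5.11. From TH-MYCN SMG to primary spheres Uhrf1 rose by a further 2.20 (SE 0.25, limma adjusted p = 4.61e-07), which put the primary spheres 7.36 above wild-type SMG. Passaged cultures were 0.49 above primary spheres (SE 0.08, n = 4 and 8, limma adjusted p = 0.00375), and all 4 exceeded every primary sphere. With the spread estimated over all 4 groups this last call was lost (limma adjusted p = 0.347). A second Uhrf1 probe, A_66_P120074, was well above background in 0 of 8 wild-type SMG and 7 of 8 TH-MYCN SMG. Its signal was at least 2.44-fold higher in TH-MYCN SMG and at least 11.9-fold higher in primary spheres than in wild-type SMG. These bounds use the lowest signal well above background on each wild-type array. A probe needed 4 samples well above background to be tested, which this one met only through the groups where it was high. It is therefore no separate test of Uhrf1.

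Dnmt1, the maintenance methyltransferase, rose along the same order of groups by smaller steps. It lay between -1.45 and -0.78 in wild-type SMG (median -1.08) and between -0.72 and 0.61 in TH-MYCN SMG (median 0.15). The primary spheres lay between 2.06 and 2.33 (median 2.19) and passaged cultures 1 to 4 at 2.58, 2.66, 2.36 and 2.38. Neighbouring groups did not overlap, although the highest wild-type and the lowest TH-MYCN ganglion came within 0.1 of each other. Dnmt1 was 1.17 higher in TH-MYCN than in wild-type SMG (SE 0.17, limma adjusted p = 3.08e-05), with 1.48 on the first slide and 0.86 on the second. Unlike Uhrf1, its larger step was into culture: it rose by 2.14 from TH-MYCN SMG to primary spheres (SE 0.15, limma adjusted p = 1.04e-09), a 4.42-fold higher signal. Passaged cultures were 0.30 above primary spheres (SE 0.07, limma adjusted p = 0.0238). This last call is not firm: without passaged culture 1 or 2 the limma adjusted p was 0.0599 or 0.0842, and within the slides 0.0889 and 0.0826. It was also lost with normexp background correction (limma adjusted p = 0.0838) and with the spread estimated over all 4 groups (limma adjusted p = 0.313).

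Dnmt3b, a de novo enzyme, followed the order of the maintenance pair. Its level lay between -1.79 and -1.19 in wild-type SMG (median -1.60) and between -0.98 and 0.41 in TH-MYCN SMG (median -0.06). Primary spheres lay between 0.64 and 0.99 (median 0.90), and passaged cultures 1 to 4 at 1.03, 1.06, 0.97 and 1.16. Only the 2 sphere groups overlapped, through passaged culture 3. Dnmt3b was 1.42 higher in TH-MYCN than in wild-type SMG (SE 0.16, limma adjusted p = 1.59e-06) and rose by 0.97 into primary spheres (SE 0.15, limma adjusted p = 1.05e-05). The passaged cultures were 0.21 above the primary spheres (unadjusted 95% interval 0.03 to 0.38, limma adjusted p = 0.107), a difference that was not called. All 3 Dnmt3b probes were higher in TH-MYCN SMG (0.81 to 1.42) and again in primary spheres (0.97 to 1.20), and each of these 6 differences was called.

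Dnmt3a, the other de novo enzyme, differed between the ganglia and was not called in the later steps. It lay between 1.21 and 2.34 in wild-type SMG (median 1.76) and between 2.41 and 3.20 in TH-MYCN SMG (median 2.99). Primary spheres lay between 2.15 and 2.77 (median 2.68), and passaged cultures 1 to 4 at 2.59, 2.76, 2.83 and 2.71. The 2 SMG groups did not overlap, and the spheres lay inside or just under the range of TH-MYCN SMG. The difference between the ganglia was 1.11 (SE 0.16, limma adjusted p = 2.44e-05), with 1.47 on the first slide and 0.75 on the second. Primary spheres differed from TH-MYCN SMG by -0.28 (95% interval -0.55 to 0.003, limma adjusted p = 0.0625), and this comparison depended on scaling. Dnmt3a was called lower in primary spheres after quantile normalization (-0.57, limma adjusted p = 0.00116), after normexp background correction (-0.51, limma adjusted p = 0.00141) and with the median difference set to 0 (-0.55, limma adjusted p = 0.00116). It was also called lower without TH-MYCN SMG replicate 4, 7 or 8 (limma adjusted p = 0.0322, 0.021 and 0.0315). Against wild-type SMG, primary spheres were 0.83 higher (SE 0.13, limma adjusted p = 1.83e-05).

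Tet1, which carries a CXXC domain that binds unmethylated CpG, rose in 2 small steps. It lay between 0.24 and 0.91 in wild-type SMG (median 0.56) and between 0.83 and 1.33 in TH-MYCN SMG (median 1.14). Primary spheres lay between 1.34 and 1.81 (median 1.62), and passaged cultures 1 to 4 at 2.03, 1.72, 1.78 and 1.87. The SMG groups overlapped through 1 TH-MYCN ganglion, replicate 4, while primary spheres lay above all ganglia. Tet1 was 0.51 higher in TH-MYCN than in wild-type SMG (SE 0.11, limma adjusted p = 0.000858), 1.43-fold, and 0.47 higher again in primary spheres (SE 0.09, limma adjusted p = 0.000181). The second step was 0.19 with the median difference set to 0 and was then not called (limma adjusted p = 0.0655). The second Tet1 probe, A_51_P512172, differed by 0.13 between the ganglia (limma adjusted p = 0.222) and rose by 0.66 into primary spheres (limma adjusted p = 9.98e-07). The step between ganglia therefore rests on 1 of the 2 probes, and the step into culture was seen by both.

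Tet2, which lacks a CXXC domain of its own, differed between the ganglia and was not called in the later steps. Its level lay between 0.33 and 0.76 in wild-type SMG (median 0.37) and between 0.47 and 1.16 in TH-MYCN SMG (median 0.90). Primary spheres lay between 0.79 and 1.27 (median 0.94), and passaged cultures 1 to 4 at 1.16, 1.01, 1.19 and 1.10. Wild-type and TH-MYCN SMG overlapped, with 6 of 8 TH-MYCN ganglia above every wild-type one. The difference between the ganglia was 0.42 (SE 0.10, limma adjusted p = 0.00172), a 1.34-fold higher signal, and 0.43 on the first slide, where it was not called (limma adjusted p = 0.0776). The second Tet2 probe, A_55_P2051405, was 0.50 higher in TH-MYCN SMG (limma adjusted p = 0.000558). Primary spheres differed from TH-MYCN SMG by 0.11 (95% interval -0.11 to 0.33, limma adjusted p = 0.326), and by -0.16 with the median difference set to 0.

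Tet3, the TET enzyme best known from the zygote and from neurons, cannot be given a single direction, because its 3 probes disagreed. The brightest, A_55_P2175260, lay between -2.50 and -1.19 in wild-type SMG (median -2.17) and between -3.44 and -2.27 in TH-MYCN SMG (median -2.59). It lay between -2.30 and -1.57 in primary spheres (median -1.98) and at -2.05, -1.97, -1.91 and -1.84 in passaged cultures 1 to 4. The SMG groups overlapped when pooled, but wild-type ganglia averaged -1.67 on the first slide and -2.42 on the second, and within each slide every TH-MYCN ganglion lay below every wild-type one. TH-MYCN ganglia averaged -2.38 and -2.99 on these slides, and primary spheres -1.82 and -2.14 on the 2 sphere slides. All 4 passaged cultures read lower on the second sphere slide than on the first, by up to 0.53. The next largest such difference between arrays was 0.20, for Dnmt3b. By this probe Tet3 was -0.64 in TH-MYCN against wild-type SMG (SE 0.21, limma adjusted p = 0.013), and -0.42 with the median difference set to 0 (limma adjusted p = 0.0955). By the other probes it was higher in TH-MYCN SMG, by 0.78 with A_51_P199339 (SE 0.15, limma adjusted p = 0.000298) and by 0.38 with A_52_P491273 (SE 0.13, limma adjusted p = 0.0146). The mean over the 3 probes differed by 0.17 (limma adjusted p = 0.202).

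**Figure D3:**
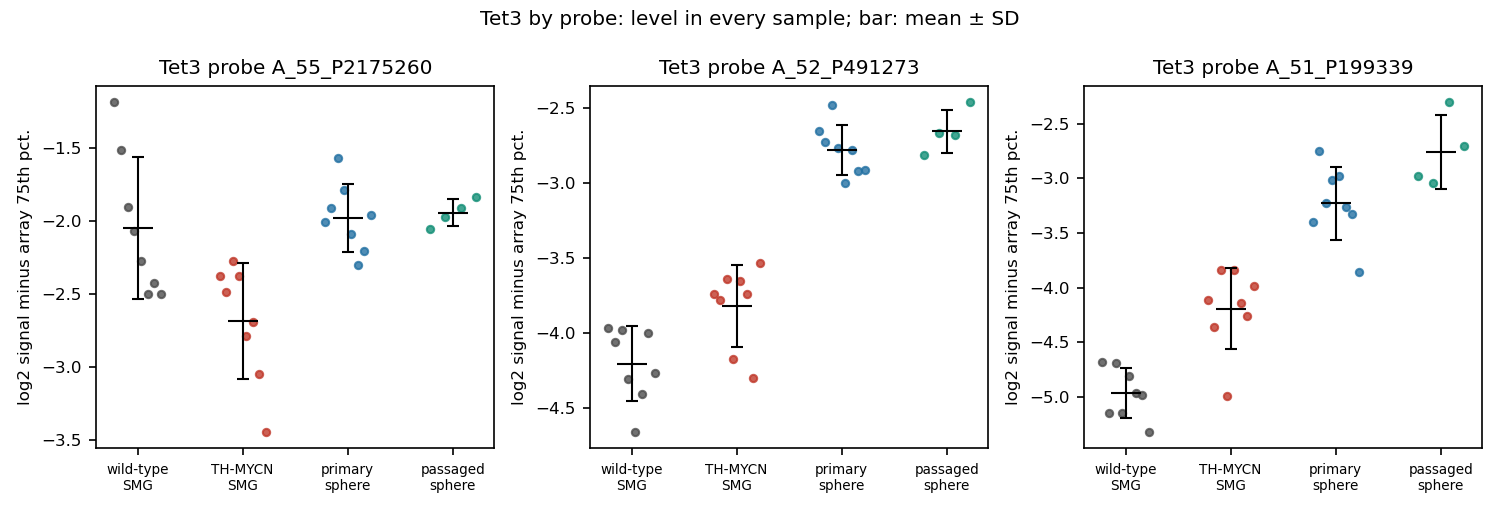
Level (log2 signal relative to the array's 75th percentile) at each of the 3 Tet3 probes in every sample, with the group mean ± SD. The probe on the left is lower in TH-MYCN SMG than in wild-type SMG and about level between wild-type SMG and spheres, while the other 2 rise from wild-type SMG to TH-MYCN SMG to primary spheres.

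Into primary spheres the Tet3 probes ran the same way: 0.71 with the brightest (limma adjusted p = 0.000519), 0.97 with A_51_P199339 and 1.04 with A_52_P491273. Against wild-type SMG, primary spheres were 0.07 higher by the brightest probe (limma adjusted p = 0.732), but 1.74 and 1.42 higher by the others. Over the 28 samples the brightest probe correlated at r = 0.21 and 0.36 with the others, which correlated at r = 0.92 with each other. With group means removed, the brightest probe correlated at 0.06 and 0.32 with the others, and those at 0.38 with each other. All these correlations are given as a description, the first set spans 4 groups, and slide means were removed from neither set. All 3 probes carry the same RefSeq accession, and their positions in the transcript were not used here.

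Comparisons that skip a group combine these steps. Primary spheres were higher than wild-type SMG for 6 of 7 genes, where 83.8% of 15884 genes were called (43.1% higher), and 5 of the 7 did not overlap, as for 63.6% of all tested genes (31.9% with primary spheres the higher). The differences ran from 0.53 for Tet2 to 7.36 for Uhrf1, with Dnmt1 at 3.31, Dnmt3b at 2.40 and Tet1 at 0.98. Passaged cultures against TH-MYCN SMG were higher for 5 of 7, with 80.0% of 15286 genes called (47.1% higher), Dnmt3a (-0.14, limma adjusted p = 0.455) and Tet2 (0.24, limma adjusted p = 0.091) not being called. Both depended on the settings: Dnmt3a was called lower after quantile normalization (-0.47, limma adjusted p = 0.0253), with normexp (-0.43, limma adjusted p = 0.0267) and with the median difference set to 0 (-0.39, limma adjusted p = 0.0464). Tet2 was called higher with the median tested gene made equal in all samples (0.36, limma adjusted p = 0.0184) and without TH-MYCN SMG replicate 2 (0.28, limma adjusted p = 0.0472). Passaged cultures against wild-type SMG were higher for 6 of 7, with 80.2% of 15579 genes called (40.1% higher). These comparisons share their samples with the neighbouring ones and add no independent evidence.

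For the remaining genes the passaged and primary spheres differed by small amounts. Dnmt3a differed by 0.14 (95% interval -0.09 to 0.37), Tet1 by 0.27 (0.04 to 0.50), Tet2 by 0.12 (-0.09 to 0.34) and Tet3 by 0.04 (-0.22 to 0.30), and none was called (limma adjusted p = 0.112 to 0.865). Within one sphere slide Tet2 was called higher (0.29, limma adjusted p = 0.0389), and within the other it differed by -0.04 (limma adjusted p = 0.796). A 2-fold change lies outside each of these 4 intervals, that of Tet3 being for its brightest probe only. By the other Tet3 probes the difference was 0.47 with A_51_P199339 (SE 0.19, limma adjusted p = 0.131) and 0.12 with A_52_P491273 (limma adjusted p = 0.443).

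Among the 8 TH-MYCN SMG, the maintenance pair moved with cell cycle genes. A mitosis score, the mean log2 level of 20 mitosis genes that include none of the 7, ran from 0.12 in replicate 4 to 2.24 in replicate 2. Uhrf1 correlated with it at r = 0.990 (rho = 0.976, n = 8, exact permutation p = 4.96e-05, 0.000347 adjusted over the 7 genes). Dnmt1 correlated at r = 0.990 as well (rho = 0.952, exact permutation, adjusted p = 0.000347). Of the 15825 genes tested, 0.449% correlated with the score at least as highly as Uhrf1 and 0.480% as highly as Dnmt1. Without the 2 samples farthest from the median score, replicates 4 and 5, r was 0.979 for Uhrf1 and 0.985 for Dnmt1. With values centred within slides it was 0.997 and 0.996.

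**Figure D4:**
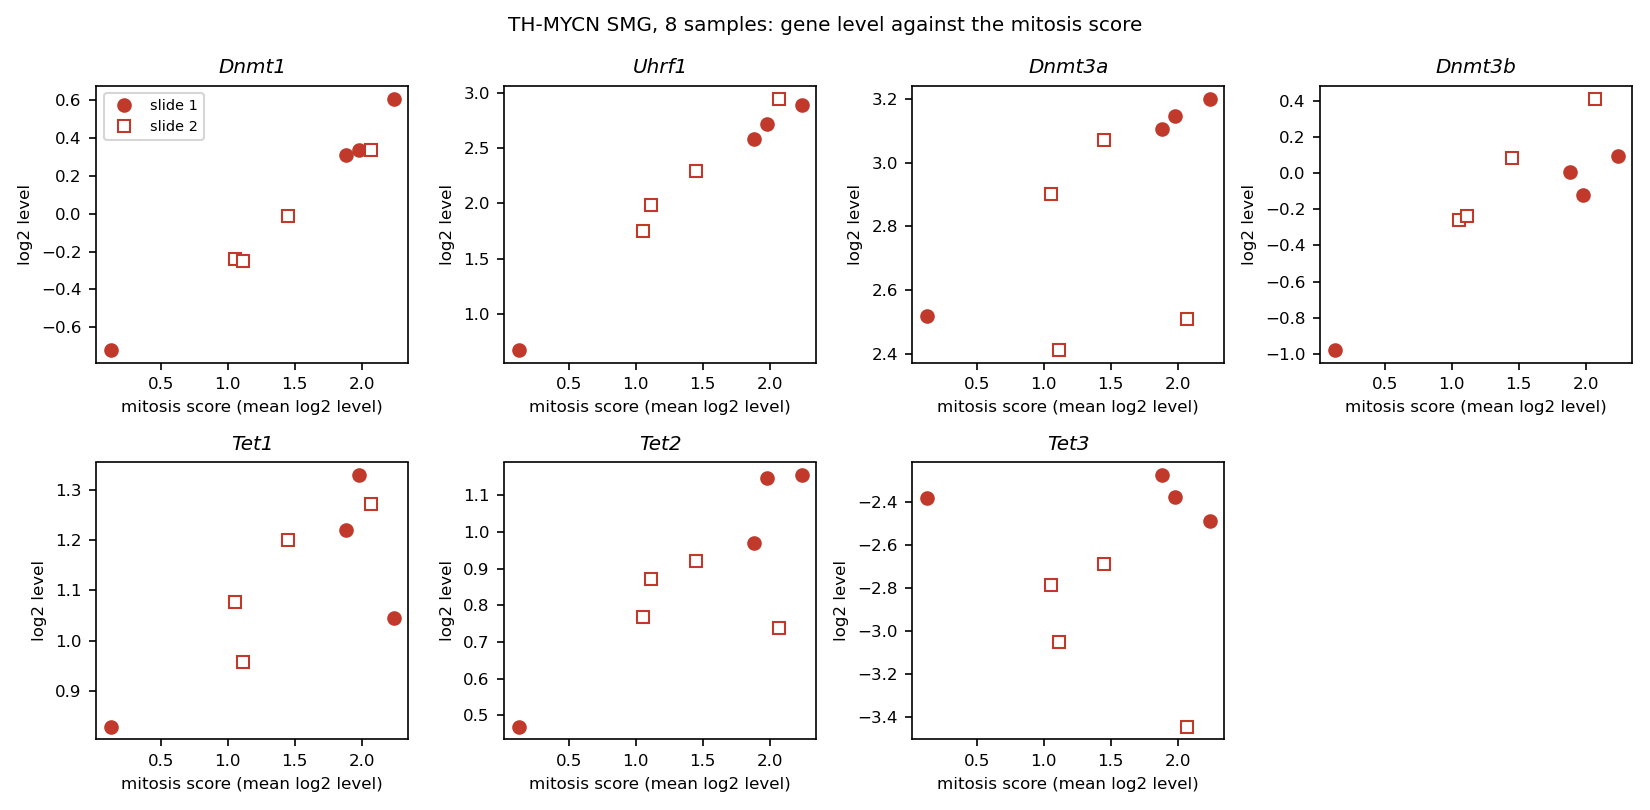
Level of each gene against the mitosis score (mean log2 level of 20 mitosis genes) in the 8 TH-MYCN SMG, with the slide as marker. Dnmt1 and Uhrf1 lie close to a line from replicate 4 (score 0.12) to replicate 2 (score 2.24), while Dnmt3a and Tet3 scatter.

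For the other genes the relation was weaker or rested on few ganglia. Dnmt3b correlated at r = 0.890 (rho = 0.881, exact permutation, adjusted p = 0.0106), a value reached by 9.67% of all genes, and fell to 0.571 without replicates 4 and 5, while centring within slides gave 0.983. Tet2 gave r = 0.805 (rho = 0.643, exact permutation, adjusted p = 0.0277), reached by 16.3% of all genes, and 0.390 without those replicates. Tet1 gave r = 0.773 (rho = 0.571, exact permutation, adjusted p = 0.0305), reached by 18.0% of all genes, and 0.472 without them. Without replicate 4 alone r was 0.687 for Dnmt3b, 0.547 for Tet2 and 0.525 for Tet1. None of the 3 passed, so none was firm without that ganglion. These values were not centred within slides, and centring without replicate 4 was not run. On the second slide, Dnmt3b in replicates 5 to 8 was -0.26, 0.08, -0.24 and 0.41, at scores of 1.06, 1.45, 1.11 and 2.07. The Tet2 relation also missed the threshold without replicate 1, 2 or 3 (r = 0.795, 0.755 and 0.799), and that of Tet1 without replicate 1, 3, 7 or 8 (r = 0.762, 0.760, 0.765 and 0.742). Within slides Tet2 gave 0.810 and Tet1 0.785. Dnmt3a gave r = 0.556 (rho = 0.524, exact permutation, adjusted p = 0.164) and Tet3 by its brightest probe r = -0.109 (rho = 0.024, exact permutation, adjusted p = 0.788). Within slides these became 0.572 and -0.339, and without replicate 8 Dnmt3a reached r = 0.823 (exact permutation, adjusted p = 0.0219). In bulk tissue a smaller share of dividing cells and less RNA per cell cannot be told apart.

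The genes whose pattern over the 28 samples was most like each member were as follows, among 14989 genes and as a description, since the samples fall into 4 groups. Uhrf1 was closest to Mcm10, a replication initiation factor, Birc5, a mitotic survival protein, and Mcm6, a subunit of the replicative helicase (all r = 0.998, and 0.893 to 0.921 with group means removed). Dnmt1 was closest to Hnrnpu, Ppil1 and Hnrnpab, which act on nuclear RNA (r = 0.996 to 0.998). Dnmt3b was closest to Hirip3, Tbc1d31 and the helicase subunit Mcm4 (r = 0.993 to 0.994). Dnmt3a was closest to Wnt3, Dusp8 and Prr18 at lower values (r = 0.912 to 0.918). Tet1 was closest to Mex3b and the histone methyltransferases Nsd2 and Setd2 (r = 0.959 to 0.967), and Tet2 to Tia1, Gm4532 and Usp54 (r = 0.903 to 0.909). The brightest Tet3 probe was closest to Cdhr2, Barhl1 and Oscar (r = 0.949 to 0.964, and 0.919 to 0.936 with group means removed). This probe differed by slide in every group and slide means were not removed, so the part of slide in these values was not tested.

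The marker lists show how the groups differed in other cells, and their part in the member results was not tested. Over all tested genes, 21.9% were higher and 43.8% lower in TH-MYCN than in wild-type SMG. In primary spheres 7859 of 15636 genes were higher and 5148 lower than in TH-MYCN SMG. After passage 731 of 14150 genes were higher and 925 lower. Between the ganglia, all 20 mitosis genes and all 19 tested DNA replication genes were higher in TH-MYCN SMG, with medians of 5.44 and 2.47. Some mitosis genes were dim in part of the 28 samples: Aurkb was well above background in 16, Kif2c, Cenpf and Ttk in 20 and Kif11 in 21. The size of the mitosis median and the wild-type mitosis level may therefore rest partly on dim values. The mean mitosis level was -4.56 to -3.51 in wild-type SMG, 0.12 to 2.24 in TH-MYCN SMG, 3.02 to 3.17 in primary and 3.13 to 3.47 in passaged spheres. Macrophage markers were higher in TH-MYCN SMG in 7 of 8 cases, with a mean level of 0.85 to 1.53 in wild-type and 1.58 to 2.49 in TH-MYCN SMG. Markers of glia were lower in 8 of 10 cases, of fibroblasts in 6 of 7, of endothelium in 5 of 7, of lymphocytes in 3 of 6 and of sympathetic neurons in 8 of 12 with 1 higher, and limma called none of 4 erythroid markers (0 with an unadjusted p under 0.05). With the median difference set to 0, fibroblast markers were lower in 4 of 7 cases and endothelial markers in 2 of 7, and 1 lymphocyte marker was higher and 2 lower. In primary spheres against TH-MYCN SMG, all 8 macrophage, 7 fibroblast and 4 erythroid markers were lower, as were 9 of 10 glial, 6 of 7 endothelial, 4 of 6 lymphocyte and 7 of 12 sympathetic markers, while 1 glial, 1 endothelial, 1 lymphocyte and 3 sympathetic markers were higher. The mean macrophage level in primary spheres was -5.83 to -4.75, with C1qa, C1qc and Adgre1 well above background in 0 of 8, and the mean fibroblast level -6.14 to -2.51 against 3.70 to 4.02 in TH-MYCN SMG. Sympathetic markers were lower in spheres too, at 4.05 to 4.42 against 5.42 to 6.09. Between passaged and primary spheres, 3 of 8 glial and 1 of 12 sympathetic markers were lower, and 3 sympathetic markers, 4 of 20 mitosis and 9 of 19 DNA replication genes were higher. After quantile normalization limma called 0 of the 20 mitosis genes there (9 at an unadjusted p under 0.05) and 8 of the DNA replication genes.

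Genes that work beside the members were counted by role. Of the partners of maintenance and de novo methylation, 15 of 17 could be tested. In TH-MYCN against wild-type SMG, 9 were higher, 1 was lower and 5 were not called, with a median of 0.67, and 13 were higher both after quantile normalization and with the median difference set to 0. Among the highest were Cdca7 (4.05), Hells (2.80) and Cdca7l. The last was well above background in 1 of 8 wild-type SMG and at least 4.77-fold higher in TH-MYCN SMG, through which it passed the filter. CDCA7 and HELLS form a nucleosome remodeller that DNA methylation in compact chromatin needs. Dnmt3l, the catalytically inactive helper of the de novo enzymes, was lower (-1.04, limma adjusted p = 0.00016). It was well above background in 22 of the 28 samples, so some of its differences may rest partly on dim values. In primary spheres 12 were higher, 1 lower and 2 not called, with a median of 0.56 (8 higher and 2 lower under either of those scalings), led by the replication clamp Pcna (1.75), Cdca7l (1.72) and Cdca7 (1.68), while Dnmt3l was lower again (-2.51). Between the sphere groups 3 were higher after passage and 12 were not called (2 higher under either of those scalings): Cdca7 (0.54), the replicative ligase Lig1 (0.39) and the histone methyltransferase Setdb1 (0.32).

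Of 19 genes of base excision and TET function, 10 were higher, 4 lower and 5 not called in TH-MYCN against wild-type SMG, with a median of 0.44 (13 higher and 2 lower with the median difference set to 0). Over all tested genes, 21.9% were higher and 43.8% lower there, and 50.3% were higher in primary spheres than in TH-MYCN SMG. The glycosylase Neil3, well above background in 2 of 8 wild-type SMG, was at least 36.7-fold higher in TH-MYCN SMG, through which it passed the filter. Tdg (1.30), which removes the oxidised bases TET enzymes make, and the strand-break sensor Parp1 (1.04) rose too. The glycosylase Neil2 (-0.63), the stress gene Gadd45g (-0.58) and the CXXC protein gene Cxxc4 (-0.42) were lower. Into primary spheres 14 were higher, 2 lower and 3 not called, with a median of 0.73. Tdg (1.60), the endonuclease Apex1 (1.25) and Parp1 (1.25) led, and Neil2 (-1.55) and Cxxc4 (-0.78) were lower. After passage Sin3a (0.24), a corepressor that binds TET1, was called higher (limma adjusted p = 0.048) and the other 18 were not called, and limma called none of the 19 after quantile normalization or with the median difference set to 0 (5 and 6 at an unadjusted p under 0.05).

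**Figure D5:**
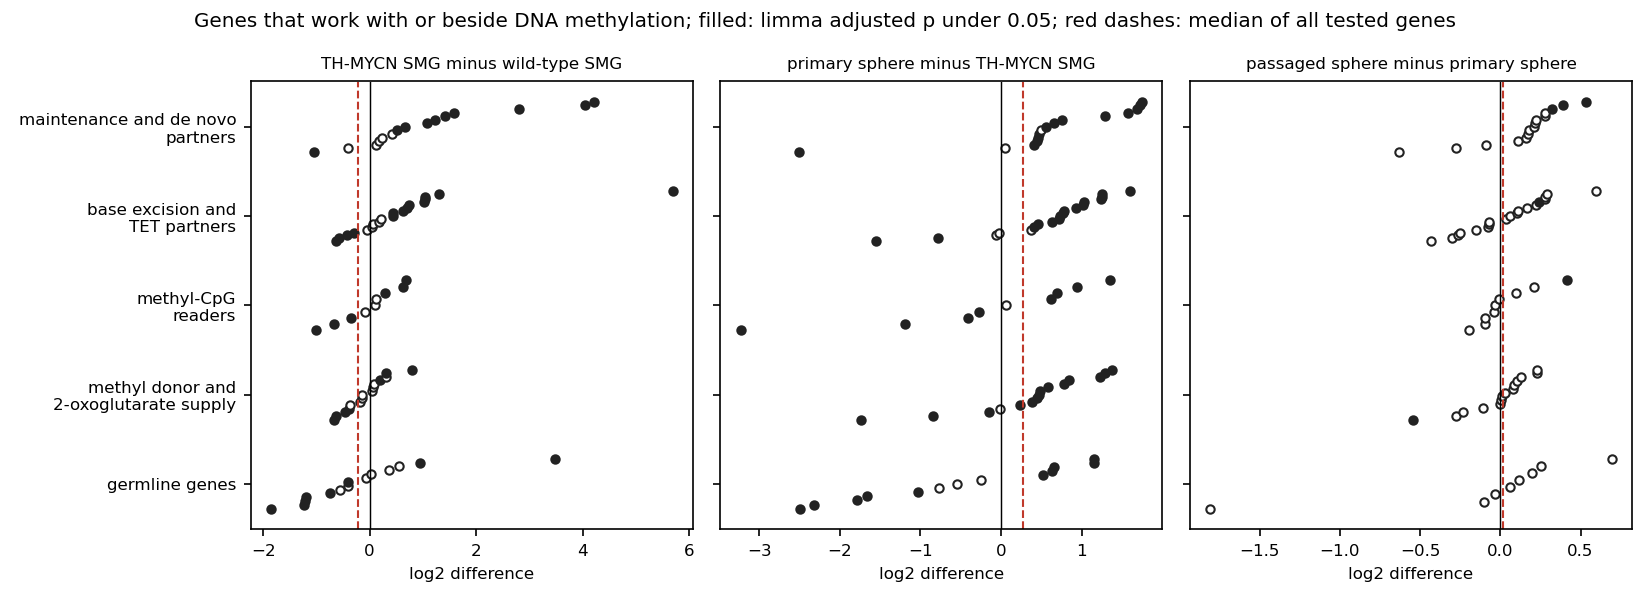
log2 difference of each tested gene in 5 lists of genes that work beside DNA methylation, in the 3 neighbouring comparisons (horizontal axis, own scale per panel). Filled points passed a limma adjusted p of 0.05 and the dashed line is the median of all tested genes. Maintenance partners and base excision genes lie mostly to the right in the first 2 panels, and most points in the passaged panel are open.

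The 9 readers of methyl-CpG were counted next, and their balance depended on scaling. Over all tested genes, 21.9% were higher and 43.8% lower in TH-MYCN than in wild-type SMG, and 50.3% were higher in primary spheres than in TH-MYCN SMG. The counts of readers are not read as particular to them. In TH-MYCN against wild-type SMG 3 were higher, 3 lower and 3 not called (median 0.09), and 5 were higher and 2 lower with the median difference set to 0 (median 0.31). Mbd3 (0.68), Zbtb33 (0.62) and Mbd1 (0.29) rose, and Zbtb4 (-1.01), Mbd5 (-0.66) and Mbd2 (-0.34) fell. In primary spheres 4 were higher, 4 lower and 1 was not called. Mbd3 (1.35) and Zbtb38 (0.94) rose, and Zbtb4 fell by 3.23 and Mbd5 by 1.19. After passage Mbd1 (0.41) was higher and 8 were not called. The median of the readers in primary spheres changed sign with scaling, from 0.07 to -0.21 with the median difference set to 0 and to -0.13 after quantile normalization.

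Genes that supply the methyl donor or 2-oxoglutarate were counted in the same way. The shares over all tested genes were again 21.9% higher and 43.8% lower in TH-MYCN SMG than in wild-type SMG, and 50.3% higher in primary spheres than in TH-MYCN SMG. In TH-MYCN against wild-type SMG 3 of 15 were higher, 4 lower and 8 not called (median -0.15), which became 7 higher, 3 lower and a median of 0.08 with the median difference set to 0. Idh2 (0.80), the mitochondrial isocitrate dehydrogenase, rose, and the cytosolic Idh1 (-0.67) fell. In primary spheres 11 of 15 were higher, 3 lower and 1 not called (median 0.47), which became 8 higher and 3 lower (median 0.20) with the median difference set to 0 and 8 higher and 5 lower (median 0.25) after quantile normalization. Ahcy (1.37), which clears the inhibitor left after each methyl transfer, Idh2 (1.29) and Mtrr (1.22) rose. Nnmt, which spends methyl groups on nicotinamide, was well above background in 0 of 8 primary spheres and at least 2.03-fold higher in TH-MYCN SMG. It passed the filter only through TH-MYCN SMG.

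Germline genes known to be silenced by promoter methylation in somatic cells were mostly dim. Of 20 such genes, 14, 13 and 8 passed the filter in the 3 comparisons. In TH-MYCN against wild-type SMG 2 were higher, 6 lower and 6 not called (median -0.41). Over all tested genes, 21.9% were higher and 43.8% lower there, and 50.3% were higher in primary spheres than in TH-MYCN SMG. The share of germline genes called lower between the ganglia is close to that over all genes, so it is not read as particular to them. Tex101, well above background in 1 of 8 wild-type and 8 of 8 TH-MYCN SMG, was at least 8.09-fold higher in the latter, through which it passed the filter. Sycp1 rose by 0.95, and Mael (-1.85), Sycp3 (-1.23) and Ddx4 (-1.21) fell. Over the 28 samples Mael was well above background in 10 and Ddx4 in 13, so the sizes of their falls rest partly on dim values. In primary spheres 5 were higher, 5 lower and 3 not called (median -0.55), and 3 were higher and 6 lower with the median difference set to 0. Tuba3a and Tuba3b, at 1.15 each, are near-identical copies whose probes may share RNA. Sycp3 was at least 2.06-fold and Ddx4 at least 1.59-fold higher in TH-MYCN SMG than in primary spheres. Each was well above background in 0 of 8 primary spheres, against 7 of 8 and 5 of 8 TH-MYCN SMG. Both passed the filter only through TH-MYCN SMG and are among the 5 lower, so that count is partly set by the filter. Between the sphere groups limma called none of the 8 at an adjusted p under 0.05, and 1 had an unadjusted p under 0.05. DNA methylation itself was not measured in the data used here.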

How the data were processed

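RNA was labelled with Cy3 from 40 or 200 ng per sample and had an RNA integrity number over 8, per the labels' protocols, whose extraction text names spheres only. Scanner output came from Agilent Feature Extraction 11.5.1.1, per the file headers. The headers show that the deposited processed intensity had its background subtracted and a spatial trend removed, with no scaling between arrays. Of the log2 values in the authors' deposited table, 99.9% matched the scaled values used here to 0.05 once 1 constant was removed for each probe. What that table was centred on is unknown.

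Accessions named 27235 of 55681 probes (20660 symbols) through a RefSeq table of GRCm38.p6, and coordinates of the array files were not used. Control spots and outlier-flagged spots (109 to 211 per array) were left out, and the remaining spots of a probe were averaged. Probes left without a spot in any sample of a comparison were dropped, the other array of a passaged culture being used where it had one. None of the members' spots was flagged and no spot was saturated. The log2 signal relative to the 75th percentile of its array was tested with limma 3.58.1 in R 4.3.3 (lmFit, eBayes), 2 groups at a time. A probe needed 4 samples well above background, and a gene took its probe with the highest mean. Passaged cultures entered as the mean of their 2 arrays. On simulated data, 44%, 78%, 100% and 100% of genes changed by 0.5, 1, 2 and 3 on the log2 scale were recovered between the ganglia (15825 genes), and 56%, 80%, 94% and 100% between the sphere groups (14150 genes). In these simulations 50 genes were changed at each size, against 10391 and 1656 genes called in the data, and noise was independent between genes. Recovery in the real comparisons may therefore differ. The number of arrays limits precision.

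The members, lists and tests were chosen with earlier results of these data known. Genes named beyond the members are up to 3 called genes with the largest rise and fall per list, the 3 nearest genes per member, and markers of other cell types where their list moved, and some genes of these lists are not reported here. Replicate numbers were shared between groups, and the labels do not say whether same-numbered samples share a mouse. They were not taken to pair the samples, since the labels state no pairing, and correlations cannot settle whether there was one. Between the ganglia, same-numbered samples correlated over 0.1 in 7 of 8 pairs (4 of 8 within slides), and 4 of 8 correlated best with their own number. Between TH-MYCN SMG and primary spheres 1 of 8 pairs did (1 within slides), and 1 was best with its own number. Between the sphere groups 2 of 4 did (3 of 4 within slides), and 3 of 4 correlated best with their own number. Alternatives covered scaling, background correction, filter, probe rule, pooled spread, slides, arrays and each sample left out.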

Additional observations from a re-analysis of the deposited data

How the results depend on the processing

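Of 1106 recomputed differences of single members, 1070 kept their direction and call, and of 91 recomputed relations 71 did. The count of 2 members called in passaged against primary spheres became 1 with normexp background correction, 1 within slide 4 and 0 with all 4 groups in one limma fit (1 at an unadjusted p under 0.05), and 1 to 2 with a sample left out (1 without passaged culture 1 or 2). The 1656 genes called there became 5286 with no filter on dim probes, 1032 within slide 3, 989 within slide 4, and 785 to 1742 with a sample left out (785 without passaged culture 4, 811 without culture 2). The 5 relations with the mitosis score became 3 with normexp, 2 without the 2 farthest samples, and 2 to 5 with a ganglion left out (2 without replicate 4). Differences that turned were small or were those of Tet3. Tet3 turned to 0.174 between the ganglia with the mean over probes. In passaged against primary spheres it turned to -0.0029 within slide 4 and -0.163 with array 2 only, and ran from -0.0095 to 0.0951 with a sample left out. Against wild-type SMG, passaged cultures turned to -0.0945 for Tet3 with array 2 only. Tet2 turned to -0.0404 between sphere groups within slide 4 and was called higher within slide 3 (0.290), where Uhrf1 and Tet2 were the 2 members called, and with the median difference set to 0 to -0.160 in primary and -0.0157 in passaged spheres against TH-MYCN SMG. The Tet3 relation turned to 0.232 without the 2 farthest samples and ran from -0.228 to 0.242 with a ganglion left out. The cause of these changes was not tested.

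With the replicate number as a block, passaged against primary spheres had 952 genes and 1 member called, Tet3 turned to -0.123 there and to -0.274 in passaged cultures against wild-type SMG, and Dnmt3a was called lower in primary spheres than in TH-MYCN SMG (limma adjusted p = 0.0215). The numbers were not taken to pair the samples, and the block changed no other member's call in the 3 neighbouring comparisons except Dnmt1 after passage (limma adjusted p = 0.122). Slide as a random block was not run for passaged cultures against SMG, since each culture mean spans both sphere slides. Dim probes limit what can be said of Uhrf1's second probe in wild-type SMG.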
